A study of Mus musculus with 2 samples.

Results

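The 40 genes described here encode the complement and coagulation factors of the mouse, taken by symbol from a fixed list out of the 23358 genes of the deposited table. The list holds 19 genes of complement and 21 of clotting and fibrinolysis, and all 40 were found. The annotation deposited with the table places 38 of them in the KEGG pathway of complement and coagulation cascades, all but Cfp and Proz. The sequenced RNA came from the ileum (distal small intestine) of BALB/c mice aged 21 days. Mice of both groups received 0.1 ml of saline into the peritoneum and 0.2 ml of castor oil by mouth, which causes diarrhea. After 0.5 h, group D received 0.3 ml of saline and group E 0.3 ml of ellagic acid (EA, a plant polyphenol) at 10 mg/ml, once a day for 3 days. Each group had 10 mice by the study's methods, and 2 libraries per group are described there. For every gene the table holds a value of group D and a value of group E in FPKM, which are fragments scaled to transcript length and to the number mapped. No SD, interval or test can be had from these values, so every difference below is a description of a pair of numbers without a replicate check.

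Complement is a set of plasma and cell-surface proteins that marks microbes and damaged cells. The classical, lectin and alternative pathways meet at the cleavage of C3 and can end in a membrane pore. Clotting factors act in a chain that turns prothrombin into thrombin, anticoagulants brake that chain, and plasmin dissolves the fibrin clot. The liver makes most of these proteins for plasma, while macrophages, fibroblasts, endothelium and gut epithelium make some of them in place.

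A change is given as log2 of the E value over the D value, with no pseudocount. Genes were counted as past the threshold when both values were above 0, differed by more than 2-fold and reached at least 1 FPKM in one group. Of the 40 members, 25 had at least 1 FPKM in one group, 14 of complement and 11 of clotting and fibrinolysis, and 15 were under 1 FPKM in both. Clu, F13a1 and Proz were higher in group E by more than 2-fold. This is 1 of 14 complement members and 2 of 11 clotting and fibrinolysis members, where 1.77% of 12957 genes passed the same threshold. None of the 25 was lower by more than 2-fold, where 1.74% of the same genes were. F13a1 and Proc met the minimum in only one group, F13a1 in group E and Proc in group D, so a difference is built into their passing.

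The table as a whole sets limits on small numbers. Actb, which encodes β-actin, had 4630 FPKM in group D and 4745 in group E. Gapdh, an enzyme of glycolysis in all cells, had only 0.120 and 2.98 FPKM, so a number near 0 may be a failed estimate. The enterocyte markers Fabp2, Vil1 and Sis were between 877 and 3910 FPKM in both groups, whereas the hepatocyte marker Alb (albumin) had 0.111 FPKM (group D) and 0 (group E). Other hepatocyte markers were above 1 FPKM in both groups, Serpina1b at 3.80 and 2.46 FPKM and Ttr at 3.28 and 1.78 FPKM. Positions are those of the deposited table, and no source used here names their genome build. All 40 listed loci overlap the same gene in GENCODE M21 (GRCm38).

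Clu was the complement member with the largest change among those above the minimum. Clu encodes clusterin, an extracellular chaperone that keeps the terminal complement pore from inserting into membranes. The gene is listed on chromosome 14 from 65968483 to 65981545. It was at 18.6 FPKM in group D and 39.0 in group E, a log2 change of 1.07 or 2.10-fold. F13a1 (chromosome 13, 36867178 to 37050244) had 0.503 FPKM in group D and 1.54 in group E, a log2 change of 1.61 or 3.05-fold. F13a1 encodes the A subunit of factor XIII, the transglutaminase that crosslinks fibrin and is found in platelets and macrophages. Proz (chromosome 8, 13060908 to 13075006) had 1.63 FPKM and 3.36 FPKM, a log2 change of 1.04 or 2.05-fold. Proz encodes protein Z, a vitamin K-dependent cofactor for the inhibition of factor Xa. Clu and Proz lie close to the 2-fold line, and the next members below it are Cfi and C3, at log2 changes of 0.75 and 0.71. With FPKM rescaled to equal sums over all genes, Clu (0.71) and Proz (0.68) fall inside the line, and 1 of the 3 members, F13a1, stays past it. That rescaling rests on short RNAs, which sum to 27364 FPKM in group D and 145837 in group E. Rescaled over genes other than short RNAs, Clu and F13a1 stay past the line and Proz (0.999) is just inside it. Under upper-quartile scaling, and when centred on the median gene, all 3 stay past it.

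The bases before the start sites of F13a1 and Proz are shown because these members passed the threshold and have such a sequence in the table used, and those of C3 because all complement pathways meet at it. The 250 bases before each start site are from RefSeq (GRCm38.p6) and run 5′ to 3′ on the gene's strand. C3 lies at chr17:57228137-57228386 (minus strand), F13a1 at chr13:37050245-37050494 (minus strand) and Proz at chr8:13060658-13060907 (plus strand). In each case the start site is the end of the locus that the authors list. Capitals mark matches to any of 3 short motifs on either strand. These are TATAAA (the TATA box), AGGTCA (a nuclear receptor half-site, not by itself a whole PPAR site) and TTGCNNAA (the C/EBP core).
C3: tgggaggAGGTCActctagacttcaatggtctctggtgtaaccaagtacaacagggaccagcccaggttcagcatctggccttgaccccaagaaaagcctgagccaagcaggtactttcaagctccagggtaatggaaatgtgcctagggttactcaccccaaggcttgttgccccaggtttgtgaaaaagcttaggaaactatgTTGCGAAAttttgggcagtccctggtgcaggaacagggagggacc
F13a1: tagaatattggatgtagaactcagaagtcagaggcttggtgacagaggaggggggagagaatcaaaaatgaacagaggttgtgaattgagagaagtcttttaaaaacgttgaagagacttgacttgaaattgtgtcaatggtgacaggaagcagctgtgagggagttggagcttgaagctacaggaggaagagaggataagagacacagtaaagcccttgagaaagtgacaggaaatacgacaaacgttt
Proz: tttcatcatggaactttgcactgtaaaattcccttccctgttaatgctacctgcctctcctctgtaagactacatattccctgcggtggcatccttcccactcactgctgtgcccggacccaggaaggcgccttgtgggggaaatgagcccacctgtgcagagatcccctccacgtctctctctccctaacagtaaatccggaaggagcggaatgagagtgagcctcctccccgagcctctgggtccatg
The C3 window holds 1 AGGTCA and 1 TTGCNNAA, and the F13a1 and Proz windows hold none of the 3 motifs.

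Of the 40 members, 28 were matched to a window of 250 bases, Clu not among them. For members a start site at an end of the listed locus was preferred, which 17 of the 28 had. For all genes the first window was taken, so the shares come from unlike choices. AGGTCA is in 8 of the 28 (28.6%) and in 13.8% of the windows of 27025 genes. The 8 are C3, C6, C7, F10, F2, F5, F7 and Mbl2, of which F10, F2, F5, F7 and Mbl2 were under 1 FPKM in both groups. TATAAA was found in 4 of the 28 (14.3%, against 12.97% of all windows) and TTGCNNAA in 3 (10.7%, against 9.55%). A match is a description of letters, and binding was not measured.

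**Figure D1:**
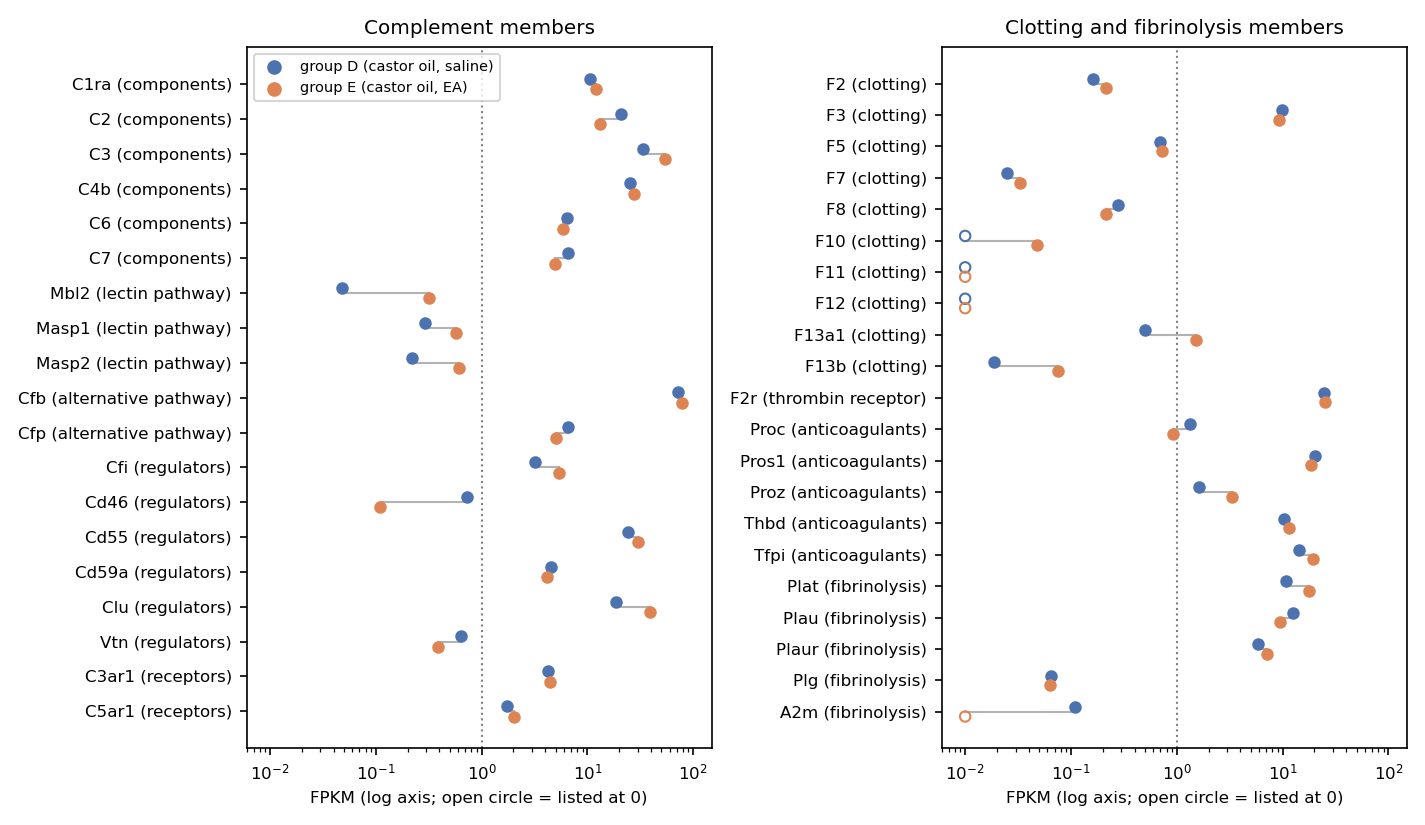
FPKM of the 19 complement members (left) and the 21 clotting and fibrinolysis members (right) in group D (blue) and group E (orange), 1 value per group, on a log axis. The dotted line is at 1 FPKM and an open circle marks a value listed at 0. Cfb is highest at 72.4 and 77.5 FPKM, and F11 and F12 are at 0 in both groups.

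Complement components of the early cascade were well above 1 FPKM, and C3 and C2 differed most. C3, the protein at which all pathways meet, was at 33.3 FPKM in group D and 54.4 in group E (log2 change 0.71). C2, the protease of the classical and lectin C3 convertase, was at 20.8 FPKM and 13.1 FPKM (log2 change -0.67). The change of C2 was thus opposite in sign to that of C3. C4b, which supplies the partner of C2 in that convertase, was at 25.3 FPKM and 27.6 FPKM. C1ra, a protease of the C1 complex, was at 10.6 FPKM and 12.04 FPKM. These values of C4b and C1ra differ by 1.09-fold and 1.14-fold. C6 and C7, components of the membrane pore, were at 6.36 and 5.87 FPKM and at 6.55 and 4.92 FPKM, with log2 changes of -0.12 and -0.41. The 6 components split evenly, 3 higher and 3 lower in group E, with a median log2 change of 0.00. The other pore genes, outside the list, are Hc (which encodes C5), C8a, C8b, C8g and C9. All of these were at or under 0.327 FPKM in both groups.

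Cfb, factor B of the alternative pathway, had the highest level of all 40 members in both groups. It was at 72.4 FPKM in group D and 77.5 in group E (log2 change 0.10), which is 30.1% and 27.0% of the summed FPKM of the complement members. Cfp, properdin, which stabilizes the alternative C3 convertase, was at 6.53 FPKM and 5.08 FPKM (log2 change -0.36). The ratio of Cfb to C3, both per kilobase, was 2.17 in group D against 1.42 in group E, while that of Cfb to C2 was 3.48 and 5.93. Cfb and C2 are neighbours on chromosome 17 with 87 bases between their listed loci, and GENCODE M21 has a gene model, Gm20547, that overlaps both on the same strand. Reads of that model cannot be assigned to 1 of the pair, and no source used here says how the authors counted them.

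The 3 members of the lectin pathway were near the bottom of the range. The recognition protein Mbl2 (mannose-binding lectin) was at 0.0476 FPKM in group D and 0.317 in group E. Masp1 and Masp2, the proteases that it activates, were at 0.289 and 0.575 FPKM and at 0.221 and 0.614 FPKM. All 3 were listed as higher in group E, by log2 changes of 2.73, 0.99 and 1.47, but none reached 1 FPKM. With 1 FPKM added to both values, these log2 changes were 0.33, 0.29 and 0.40. Of other recognition genes of this pathway, outside the list, Colec10 was at 3.54 FPKM in group D and 3.49 in group E. Fcna, Fcnb, Mbl1 and Colec11 were under 1 FPKM in both groups.

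Among the regulators of complement, the membrane protein Cd55, which speeds the decay of C3 convertases, was at 24.4 FPKM in group D and 29.8 in group E (log2 change 0.29). Cd59a, which blocks the pore, was at 4.56 FPKM and 4.15 FPKM (log2 change -0.14). Cfi, the protease that cuts C3b and C4b, was at 3.18 FPKM and 5.36 FPKM (log2 change 0.75). Of the regulators above the minimum, Clu, Cfi and Cd55 were listed as higher and Cd59a as lower. Cd46, a membrane cofactor of Cfi that in mice is mainly found in testis, was at 0.734 FPKM and 0.109 FPKM, and Vtn (vitronectin) at 0.638 FPKM and 0.389 FPKM. Cd46 had the largest log2 change of any complement member with both values above 0, -2.76, at levels under 1 FPKM in both groups. The receptors of the cleaved fragments C3a and C5a were nearly level between the groups. C3ar1 was at 4.26 FPKM and 4.43 FPKM, and C5ar1 at 1.72 FPKM and 2.03 FPKM.

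Clotting factors made by the liver were at or near 0, while the trigger of clotting was not. F3, tissue factor, which starts clotting where blood meets tissue, was at 9.95 FPKM in group D and 9.35 in group E (log2 change -0.09). F2 (prothrombin) was at 0.161 and 0.214 FPKM, F7 at 0.0248 and 0.0329 FPKM, and F13b at 0.0188 and 0.0750 FPKM. F10 had 0 (group D) and 0.0473 FPKM (group E), while F11 and F12 were at 0 in both. F5, the cofactor of factor Xa, was at 0.691 and 0.729 FPKM, and F8, the cofactor of factor IXa, which endothelium makes, at 0.276 and 0.214 FPKM. Apart from F3 and F13a1, no clotting factor on the list reached 1 FPKM in either group. F2r, the thrombin receptor PAR1 on endothelium, fibroblasts and muscle, was at 24.5 FPKM and 25.3 FPKM, the highest level among the 21 clotting and fibrinolysis members.

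Anticoagulant genes of the vessel wall were well above 1 FPKM. Pros1 (protein S, a cofactor of activated protein C) was at 20.0 FPKM in group D and 18.5 in group E. Tfpi, the inhibitor of tissue factor, was at 14.3 FPKM and 19.4 FPKM (log2 change 0.43). Thbd (thrombomodulin, which turns thrombin toward protein C) was at 10.4 FPKM and 11.5 FPKM. None of these 3 differed by as much as 1.5-fold, and Proc (protein C) was at 1.32 FPKM and 0.920 FPKM. The ratio of F3 to Tfpi was 0.693 in group D and 0.482 in group E.

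In fibrinolysis, the plasminogen activators Plat and Plau differed in opposite directions. Plat (tissue plasminogen activator, made by endothelium) was at 10.9 FPKM in group D and 17.7 in group E (log2 change 0.70). Plau (urokinase) was at 12.4 FPKM and 9.40 FPKM (log2 change -0.40), and its receptor Plaur at 5.86 FPKM and 7.15 FPKM (log2 change 0.29). So Plau was the higher of the activators in group D and Plat in group E. Their substrate Plg (plasminogen), made by the liver, was at 0.0641 and 0.0639 FPKM. A2m, a broad protease inhibitor of plasma, had 0.110 FPKM (group D) and 0 (group E).

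**Figure D2:**
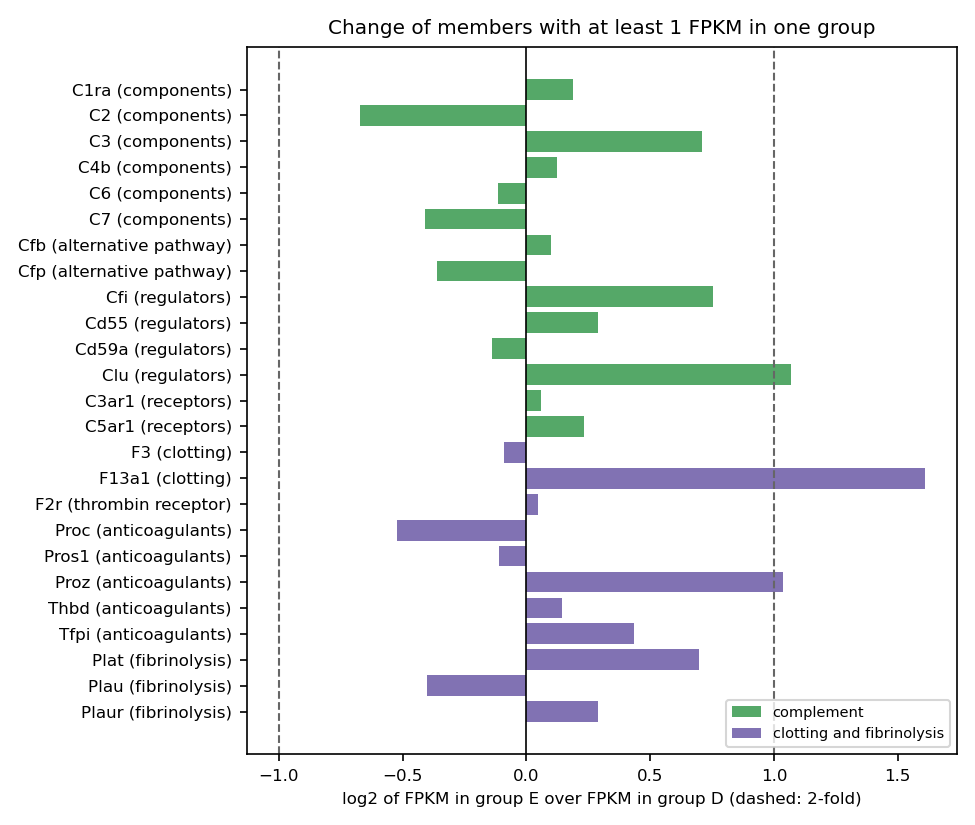
Log2 of the E value over the D value (both FPKM) for the 25 members with at least 1 FPKM in one group, ordered by role, with 2-fold changes as dashed lines. F13a1 (1.61), Clu (1.07) and Proz (1.04) lie beyond the line at the right, and C2 (-0.67) is the lowest. With FPKM rescaled to equal sums over all genes, every bar would shift left by 0.36, which brings Clu (0.71) and Proz (0.68) inside the line at the right and takes C2 past the line at the left. This shift rests on short RNAs.

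The median changes of complement and of clotting with fibrinolysis were near each other as values. The 14 complement members above the minimum had a median log2 change of 0.11 (9 higher, 5 lower) and the 11 clotting and fibrinolysis members one of 0.15 (7 higher, 4 lower), beside 0.01 over all 12957 genes. When FPKM were rescaled to equal sums over all genes, the medians were -0.25, -0.21 and -0.35. The sign of the list medians turned under this scaling alone, which rests on short RNAs. The list medians stayed above 0 when centred on the median gene (0.11 and 0.14) and under upper-quartile scaling (0.08 and 0.11). They also did when rescaled over genes other than short RNAs (0.07 and 0.11). The median size of change, regardless of sign, was 0.26 on the log2 scale in complement and 0.40 in clotting and fibrinolysis, against 0.20 over all genes. A share of 71.4% of complement members and 72.7% of clotting and fibrinolysis members lay within 1.5-fold, against 88.7% of all genes. These are counts over few genes, and no test was made of them. The median FPKM of all 19 complement members was 6.36 in group D against 5.08 in group E, while that of all 21 clotting and fibrinolysis members was 0.691 and 0.920. The latter list holds more members near 0, with 10 of 21 under 1 FPKM in both groups against 5 of 19. Among the members above the minimum, the median FPKM was 8.55 (D) and 8.95 (E) for complement and 10.4 (D) and 9.40 (E) for clotting and fibrinolysis, so the order of the lists turns with the members counted.

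**Figure D3:**
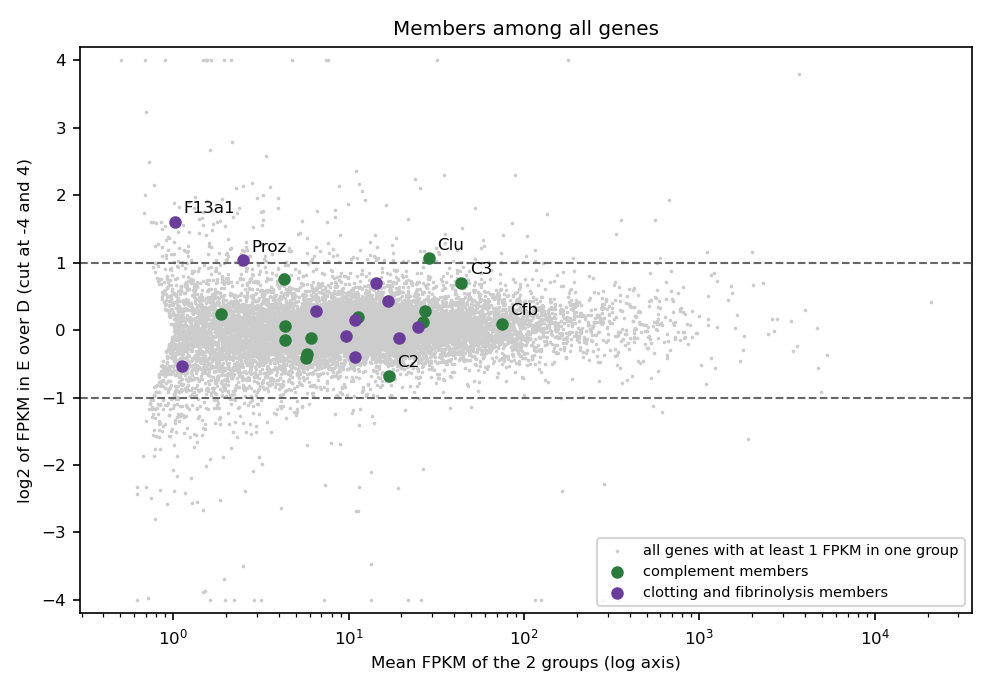
Mean FPKM of both groups (log axis) against the log2 of the E value over the D value, with 12957 genes in grey, complement members in green and clotting and fibrinolysis members in purple. Dashed lines mark 2-fold, and larger log2 values are drawn at the edges. F13a1 lies among genes near 1 FPKM, where the grey cloud is widest, and Clu and C3 lie near its upper edge at higher levels.

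Other genes of the cascades, from a list of 59 of which 58 were found, were held to the same threshold. Of the 31 with at least 1 FPKM in one group and both values above 0, none was higher by more than 2-fold and 2 were lower (background 1.77% and 1.74%), and 74.2% of the 31 lay within 1.5-fold, against 88.7% of all genes. These were Cr2, the complement receptor of B cells and follicular dendritic cells, at 3.25 FPKM (group D) against 1.14 FPKM (group E), and Serpina1a, an α1-antitrypsin gene, at 1.21 and 0.359 FPKM. Serpina1a met the minimum in group D only, so a difference is built into its passing. It also belongs to a family of near-identical copies whose reads can be shared. Cfd, adipsin, the protease that cuts factor B, had a listed value of 0 (group D) and 274 FPKM (group E), so it has no log2 change and is not in that count, although the values differ widely. Its locus is listed as 672333 bases wide against 1803 bases in GENCODE M21. The highest other genes were S100a10 (607 and 895 FPKM) and Anxa2 (533 and 628 FPKM), which together hold plasminogen and its activator at the cell surface. Tgm2, a tissue transglutaminase, was at 63.2 and 76.6 FPKM, and Plgrkt, a plasminogen receptor, at 73.3 and 49.3 FPKM.

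Partners and close copies of the members were looked at separately. C1qa, C1qb and C1qc, chains of the C1q recognition molecule made by macrophages, were at 58.9 and 60.5 FPKM, 36.0 and 60.0 FPKM, and 24.0 and 28.6 FPKM. Of the chains, C1qb differed most, with a log2 change of 0.74. Among paralogs whose reads can be shared with members, C4a was at 2.48 and 2.05 FPKM against 25.3 and 27.6 FPKM for C4b. C1rb, Cd59b and Cd55b were at 1.27 and 1.94 FPKM, 0.280 and 0.0933 FPKM, and 0.147 and 0.342 FPKM. In each of these pairs the member held the higher value in both groups, by more than 6 times. No source used here says how the authors assigned reads that match both copies.

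Markers of several cell types that make these factors were listed at other levels in group E than in group D. In whole tissue, fewer cells of a type and less RNA per cell cannot be told apart. All 5 endothelial markers (Pecam1, Cdh5, Kdr, Tek and Vwf) were higher in group E, by log2 changes of 0.28 to 0.80, and their summed level was 39.1 FPKM in group D and 55.9 in group E. Plat, Tfpi and Thbd, which endothelium expresses, had log2 changes of 0.70, 0.43 and 0.15, against a median of 0.57 for these markers. F2r, Pros1 and F8, which endothelium also expresses, had log2 changes of 0.05, -0.11 and -0.37, F8 at levels under 1 FPKM. The part of endothelial RNA in these values was not tested. With FPKM rescaled to equal sums over all genes, a scaling that rests on short RNAs, each of these log2 changes is lower by 0.36. This leaves Tek, Cdh5, Pecam1, Vwf, Plat and Tfpi above 0 and turns Kdr, Thbd and F2r below it.

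For F13a1 and the receptors C3ar1 and C5ar1, macrophages and neutrophils are the cells to compare. Of 7 macrophage markers found, 5 were higher and 2 lower in group E, with a summed level of 153.6 and 185.5 FPKM, a median log2 change of 0.20 and none past 2-fold. The list includes the complement genes C1qa, C1qb and C1qc, its highest members in both groups, so it is not separate from complement. Of the markers outside complement, Cd68 and Cd163 were higher in group E, and Csf1r and Mrc1 were lower. Csf1r, the receptor that defines macrophages, was at 23.5 and 23.2 FPKM. The neutrophil markers S100a8 and S100a9 were at 1.60 and 4.94 FPKM and at 0.743 and 2.19 FPKM, and the summed level of the 4 neutrophil markers found was 2.36 and 7.41 FPKM, with Elane listed at 0 in group D. Of 5 platelet markers, 2 were above the minimum, Gp1bb at 27.0 and 20.8 FPKM and Pf4 at 2.29 and 2.19 FPKM, both lower in group E. The locus of Gp1bb is listed as 9620 bases wide against 2087 bases in GENCODE M21, so its value may hold other RNA. Under the minimum, Ppbp and Gp9 were lower in group E and Itga2b was higher. The part of any of these cells in the value of F13a1 was not tested.

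Adipocyte markers stood apart from all other lists, but for all except Cidec this rests on group D values at or near 0. Such values may be failed estimates, and Adipoq had the same value in group D as Gapdh, 0.120 FPKM. The summed level of the 6 adipocyte genes was 33.0 FPKM in group D and 491 in group E, with Cfd, Retn and Lep listed at 0 in group D and all 6 higher in group E. Cfd, whose listed locus is far wider than the gene, makes up 274 FPKM of the group E sum. Clu and C3 were at 18.6 and 33.3 FPKM in group D, where Adipoq and Plin1 were at 0.120 and 0.0495 FPKM. The list's sum in group D is nearly all Cidec, at 32.9 FPKM, so Cidec there did not follow the other markers. The part of fat tissue RNA in the changes of Clu, C3 and Cfd was not tested. Fibroblast markers, by contrast, were at a summed 256.7 and 270.2 FPKM (3 higher, 2 lower), and smooth muscle markers at 446.5 and 570.2 FPKM (4 of 4 higher, by log2 changes of 0.31 to 0.42, of which only Acta2 stays above 0 with the rescaling). Enterocyte markers were at 6768 and 6220 FPKM. Of 4 B cell markers, 1 was higher (Ms4a1, 3.00 and 10.2 FPKM) and 3 were lower in group E, with summed levels of 34.8 and 26.7 FPKM. The locus of Ms4a1 is listed as 103068 bases wide against 16567 bases in GENCODE M21, so its value may hold other RNA. The same holds for Cnn1 (333747 against 10415 bases), Fabp2 (41525 against 4435) and Vil1 (178645 against 26184). The 3 erythroid markers summed to 22.5 and 9.54 FPKM, where Hba-a1 was lower in group E (21.8 and 5.07 FPKM) and Hbb-b1 and Alas2 were higher (0.000644 and 3.09 FPKM, and 0.710 and 1.38 FPKM), and the 4 mesothelial markers were all under 1 FPKM. The 6 hepatocyte markers summed to 7.43 and 4.30 FPKM, most of it from Serpina1b (3.80 and 2.46 FPKM) and Ttr (3.28 and 1.78 FPKM). Both passed the minimum and were lower in group E. Alb, Apoa2 and Fga were at or under 0.133 FPKM (group D) and at 0 (group E).

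**Figure D4:**
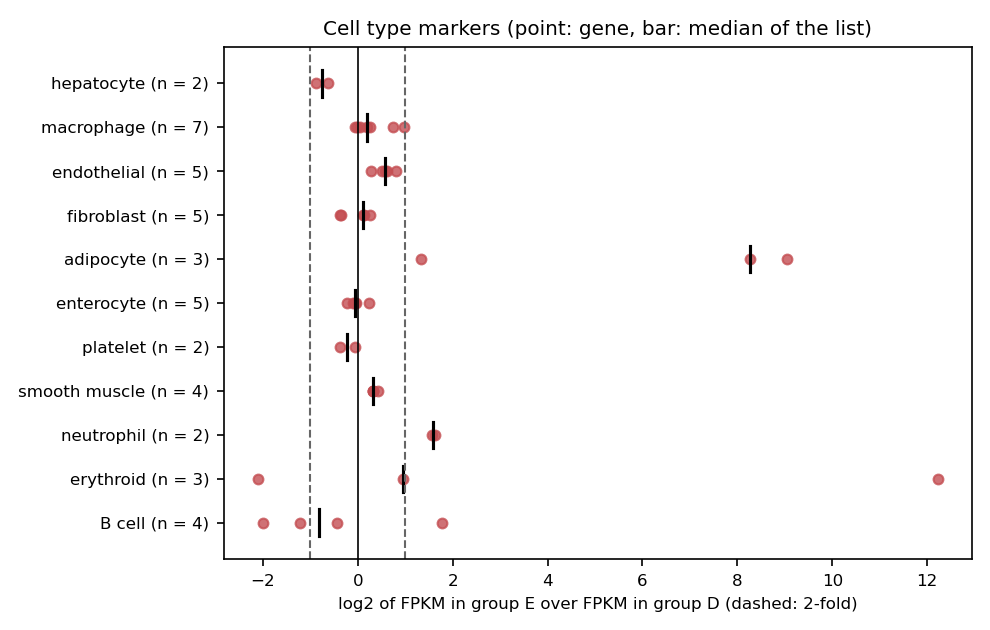
Log2 of the E value over the D value for cell type markers with at least 1 FPKM in one group and both values above 0, 1 row per list, with a black bar at the median of the list and dashed lines at 2-fold. Endothelial (median 0.57) and smooth muscle (0.32) markers all lie to the right of 0 as deposited. With FPKM rescaled to equal sums over all genes, a scaling that rests on short RNAs, Kdr, Myh11, Des and Cnn1 would lie to the left of 0. Adipocyte genes listed at 0 in group D cannot be drawn.

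By position, the members include 3 groups of neighbours. On chromosome 17, C4b, Cfb and C2 lie together in the major histocompatibility complex, with log2 changes of 0.13, 0.10 and -0.67, C2 alone being lower in group E. On chromosome 15, C6 and C7 are 184716 bases apart and were both lower in group E, with log2 changes of -0.12 and -0.41. On chromosome 8, F7, F10 and Proz follow each other with 1498 and 4231 bases between them. Only Proz of them reached 1 FPKM, with a log2 change of 1.04. F7 and F10 were at or under 0.0473 FPKM in both groups, too near 0 to read a direction from.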

How the data were processed

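RNA-seq values of the ileum of group D and group E were analysed. The authors aligned the reads with TopHat 2.0.12 (index by Bowtie 2.2.3). DESeq 1.18.0 also appears among the submitters' processing notes. The FPKM were deposited by the authors as 1 value per gene and group, 23358 genes in all. No source used here says how the 2 libraries per group were combined or scaled, and no counts were at hand, so depth per gene is unknown. The table also holds the study's own fold changes, P-values and q-values, and another table its pathway enrichment. Both were left out.

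The change of a gene was taken as log2 of its E value over its D value, with no pseudocount. Genes with both values above 0 and at least 1 FPKM in one group were counted past 2-fold. With 1 value a group there was no test. The 40 members, the 59 other genes of the cascades, 12 marker lists and the motifs were chosen with earlier results of these data known. All members are named. Of the other genes, those past 2-fold, up to 6 by level, close copies of members, and others on which a statement rests are named. Up to 3 markers per list are named except where a statement rests on more. Alternatives were filters on low FPKM, pseudocounts, scalings, fold thresholds and the treatment of repeated symbols, of which there were 0. The code recovered the fold changes set in simulated data, which checks its arithmetic only and says nothing of the spread of these data. Starts in the table count from 0, so 1 was added. Python 3.11.15, numpy 2.4.6, pandas 2.3.3 and matplotlib 3.10.9 were used.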

Additional observations from a re-analysis of the deposited data

How the results depend on the processing

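The medians of both lists kept their sign and moved by under 0.1 on the log2 scale under all alternatives but one. When FPKM were rescaled to equal sums over all genes, the median log2 change was -0.25 for complement and -0.21 for clotting and fibrinolysis, 1 clotting member stayed higher by more than 2-fold (F13a1), 0 complement members were higher and 1 was lower (C2), Clu and Proz were at 0.71 and 0.68, and 5.79% of all genes passed the threshold, against 3.50% as deposited. That scaling shifts every log2 change by the same amount and rests on short RNAs, which sum to 27364 FPKM in group D and 145837 in group E, while all other genes sum to 432319 and 444053. Rescaled over genes other than short RNAs (an alternative chosen after seeing the data), the medians were 0.07 and 0.11. In that setting 1 complement member (Clu) and 1 clotting member (F13a1) were higher by more than 2-fold, with Proz just under the threshold. Of all genes, 3.48% passed it.

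The counts rest on few genes. Without a filter, 3 complement members were higher (Clu, Masp2 and Mbl2) and 1 lower (Cd46), 7 other genes of the cascades passed 2-fold, and 8.89% of all genes did. With at least 1 FPKM in both groups 1 clotting member was higher (Proz), 1 other gene passed, and 1.92% of all genes did. With at least 5 FPKM in one group 0 clotting members and 0 other genes passed, with 1.89% of all genes. With 0.1 FPKM added, 1 clotting member was higher (F13a1), with 3 other genes and 3.35% of all genes. With 1 FPKM added, 0 clotting members were higher, with 1 other gene and 1.62% of all genes. At 1.5-fold, 3 complement members were higher (Clu, C3 and Cfi) and 1 lower (C2), with 8 other genes and 11.3% of all genes. At 3-fold, 0 complement members and 1 clotting member (F13a1) were higher, with 1 other gene and 1.14% of all genes. No paired analysis was possible because each group has 1 value per gene.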
